A study of Mus musculus with 6 samples.

Results

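The p53 pathway genes described here are 35 mouse genes. They are Trp53, which encodes the transcription factor p53, the genes that feed back on p53, and genes listed as p53 targets. The listed targets act in growth arrest, apoptosis, DNA repair and metabolism, and whether p53 controls each of them in these cells was not tested. The 35 genes were taken by name from a list of 36 names. Of these names Dcxr_none matched no gene, and each of the others matched 1 of the 41819 genes in the deposited table. By known function they were sorted by hand into 5 regulators, 11 arrest genes, 12 apoptosis genes, 4 repair genes and 3 metabolic genes. The arrest genes here include other genes of growth control, the repair genes include nucleotide supply, and the metabolic genes include detoxification. A total of 31 of them had enough counts to be tested, among 11509 tested genes in all.

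p53 is a transcription factor that is held at a low level in unstressed cells, because Mdm2, a ubiquitin ligase and itself a p53 target, marks it for degradation. DNA damage and other stresses stabilize p53, which then raises genes that stop the cell cycle, repair DNA, alter metabolism or start apoptosis. Immortal mouse fibroblast lines commonly carry a lesion in this pathway, either in p53 itself or in the Cdkn2a locus, whose product Arf restrains Mdm2. Poly(ADP-ribose) is a polymer built by PARP enzymes at DNA breaks and in chromatin, and PARG is the enzyme that degrades it.

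The RNA of 6 dishes of mouse 3T3 embryo fibroblasts was sequenced after poly(A) selection. All 6 dishes came from 1 clone transduced with a lentiviral TetOne cassette that expresses human PARG (hPARG), together with the fluorescent protein mClover3, under a promoter that doxycycline turns on. The hPARG group is 3 dishes grown for 72 h with 500 ng/ml doxycycline, and the control group is 3 dishes of the same clone grown without it. By the study's methods, the medium of all 6 dishes also held puromycin. No dish without the cassette received doxycycline, so the action of doxycycline itself and that of hPARG cannot be told apart here. The labels describe the cells as malignant and speak of wells of a 6-well plate, where the study's methods speak of dishes, and the word dish is used throughout. All dishes share 1 clone, so the p-values below set the difference between the groups against the spread between dishes of that clone.

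Counts assigned to genes lay between 21619908 and 25263818 per dish. Levels are given as CPM (counts scaled to the library size by the TMM method of edgeR) for a gene between dishes, and as RPKM (reads scaled to library size and transcript length, as deposited) where genes are compared with each other. The count model was edgeR's quasi-likelihood test, and its p-values were adjusted over all 11509 genes to a false discovery rate (FDR). A floor of 3 counts in a dish corresponds to 0.117 to 0.141 CPM, and this floor covers counting error only. No row of the table belongs to human PARG, so its induction could not be read from these counts. Where a group is given by its mean, the error is the SD over 3 dishes, and dishes are listed in the order 1 to 3. Mouse Parg stood at 51.3 ± 4.63 CPM in control cells against 52.7 ± 4.31 CPM in hPARG cells, and its log2 fold change was 0.04 with FDR = 0.999. The 8 fibroblast markers examined lay between 0.685 RPKM (Pdgfrb) and 1548 RPKM (Vim), and Cd68 was the highest of the epithelial, macrophage and endothelial markers at 0.566 RPKM, while Adgre1, which defines macrophages, had no counts. Of the fibroblast markers, Col1a1, Col3a1 and Thy1 were fitted higher in hPARG cells and Pdgfra lower at an unadjusted p under 0.05 by edgeR (log2 fold changes 0.58, 0.39, 0.30 and -0.40), and none passed the FDR. Their part in the results below was not tested. In bulk RNA, fewer cells of a type and less RNA per cell cannot be told apart.

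The dishes numbered 2 in the labels stood apart from the rest. In a principal component analysis of log2 CPM, the leading axis took up 42.0% of the variance, and on it they lay at 21.6 (control) and 24.7 (hPARG), and the other 4 dishes lay between -27.4 and -3.17. Zmat3, an RNA-binding zinc finger protein that p53 induces, shows this most plainly among the p53 pathway genes. Its CPM was 82.3, 134.8 and 81.6 in the control dishes and 78.8, 135.2 and 84.2 in the hPARG dishes. In both groups dish 2 was far above the other dishes, and the group means of 99.5 ± 30.5 and 99.4 ± 31.1 CPM were nearly equal. Zmat3 has 11435 bases of merged exons, and Apaf1, with 9028 bases, also lay higher in both dishes 2, by 0.62 and 0.52 on the log2 scale. Bax, with 1576 bases, was lower there, at -0.39 in control dish 2 and -0.46 in hPARG dish 2. Not every gene followed this order. Rrm2b, with 9134 bases, deviated by only 0.03 (control) and -0.04 (hPARG). Gadd45a, with 1764 bases, lay 0.44 higher in control dish 2 and at -0.06 in hPARG dish 2. Mdm4, with 14798 bases, lay at 0.31 and 0.25. Across the 31 tested genes, which share the same 6 libraries and are not independent, the deviation of dish 2 followed exon length with Spearman's rho of 0.302 in control and 0.606 in hPARG cells, and across all tested genes with 0.528 and 0.517. The deviation of dish 2 had the same sign in both groups for 23 of the 31 genes (74.2%, against 81.8% of all tested genes). Averaged with its sign over both groups, so that opposite deviations cancel, it exceeded the difference between the groups in size in 16 of the 31 (51.6%, against 74.6% of all). For genes given dish by dish below, the log2 fold change without both dishes 2 stands beside the one from all dishes.

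**Figure D1:**
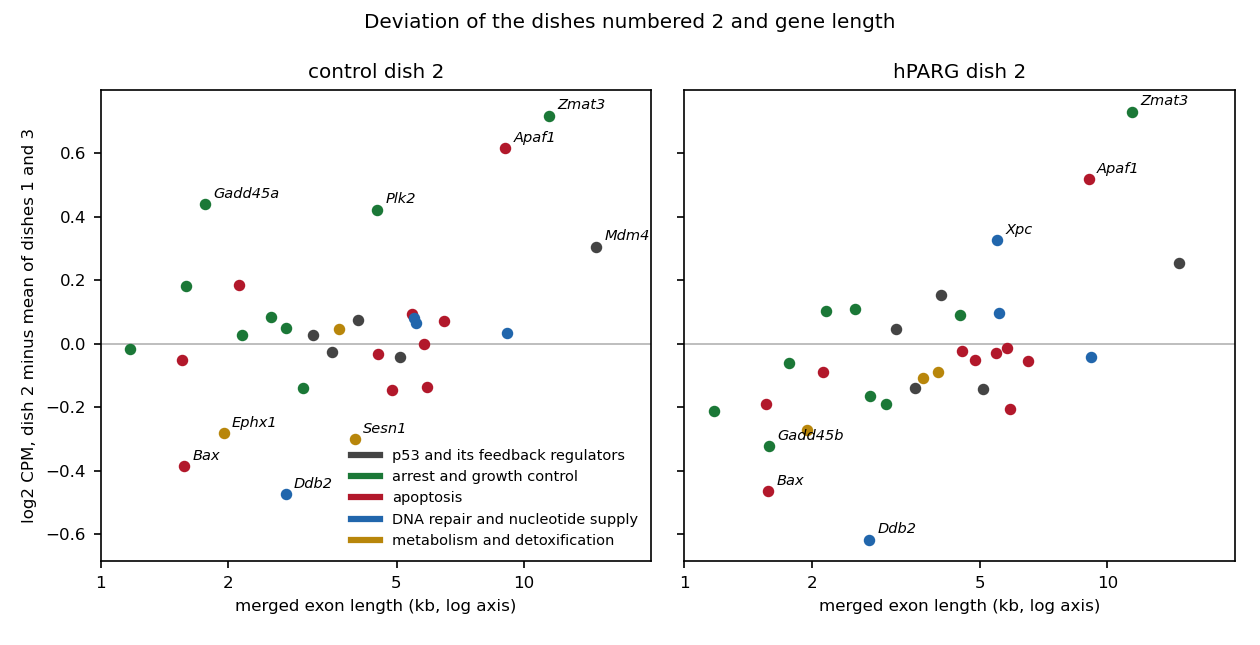
Deviation of dish 2 from the mean of dishes 1 and 3 (log2 CPM, vertical axis) against merged exon length in kilobases (log axis) for the 31 tested p53 pathway genes, control on the left and hPARG on the right, with 1 point per gene coloured by role. Zmat3 and Apaf1 lie high in both panels (0.72 and 0.62 in control), and Bax and Ddb2 low (-0.39 and -0.47).

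The 31 genes covered a wide range of levels per length. Mdm2 was the highest, at a mean of 456 RPKM over the 6 dishes, and 134 of the 11509 tested genes were higher. Its lowest dish (421 RPKM) was above the highest dish of any other p53 pathway gene, which was 172 RPKM for Plk2 in control dish 2. Mdm2 (ENSMUSG00000020184) lies on chromosome 10, 117688875 to 117710758 on the minus strand of GRCm38, the build of all coordinates given here. Below it stood Ccng1 at 139, Plk2 at 124, Trp53 at 122, Bax at 112 and Phlda3 at 96.5 RPKM. Neighbours in this order overlapped between dishes, and Plk2 alone ran from 102 to 172 RPKM. Then came Gadd45b at 47.6 and Ephx1 at 38.6 RPKM. At the low end were Apaf1 at 2.14, Xpc at 2.36 and Ddb2 at 2.46 RPKM. In all, 17 of the 31 lay above the median of tested genes, which was 8.21 RPKM, and 14 below it.

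**Figure D2:**
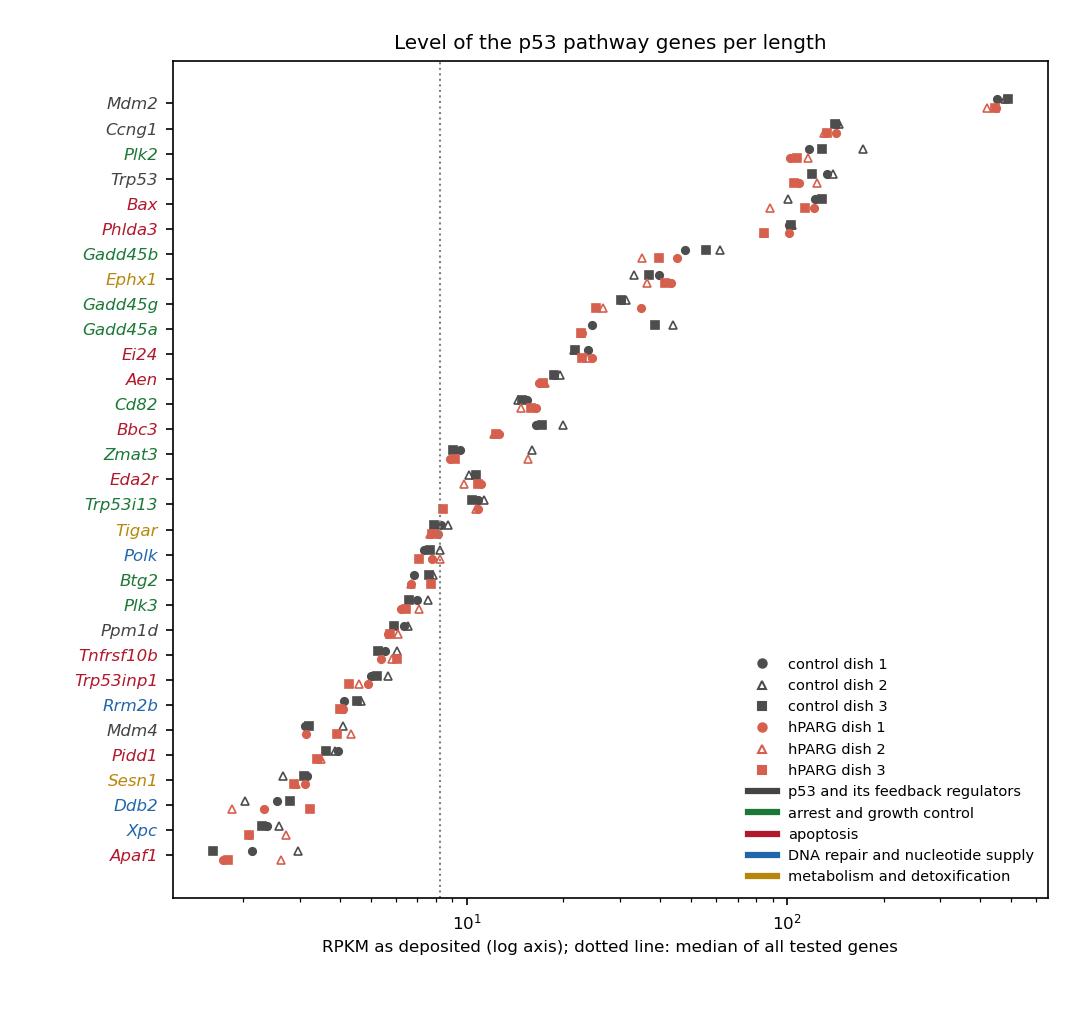
RPKM as deposited (log axis) of the 31 tested p53 pathway genes in each of the 6 dishes, ordered by the mean, with gene names coloured by role. The dotted line is the median of all tested genes (8.21 RPKM), and Mdm2 stands above all other genes of the list in every dish, at 421 to 489 RPKM.

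The other 4 genes were too low to test. Pmaip1, which encodes the BH3-only protein Noxa, had no counts in any of the 6 dishes, which allows up to 3 counts (0.117 to 0.141 CPM) per dish. Perp, a membrane protein of p53-dependent apoptosis, had between 0 and 1 counts per dish. Rprm (Reprimo), an arrest gene, and Trp53i11, a p53-inducible gene, had between 0 and 2 counts. At this depth no difference between the groups was detectable for these genes.

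Promoter sequence was searched for the p53 decamer, the consensus of 10 letters that p53 binds as a pair of copies, and a hit is a match of all 10 letters. The consensus reads the same on both strands, so 1 pass covers both. The windows run from 250 bases before to 50 after each gene's start in RefSeq (GRCm38.p6), and 27 of the 35 genes had 36 windows of 300 bases. A match was present in 11 of the 36 windows (30.6%), against 8.36% of all 32851 windows. By gene, 10 of 27 had a match in some window (37%), against 9.55% of 27025 genes, and they are Gadd45a, Bax, Aen, Ei24, Sesn1, Mdm2, Ccng1, Trp53, Ppm1d and Polk. No match says only that the letters are absent from the window, as in the 3 windows of Bbc3, and a match is not a shown binding site. Windows of the 2 feedback genes with the highest levels and of Gadd45a, the gene with the largest fitted difference, are printed 5′ to 3′ on the gene's strand, all of them the minus strand, with the match in capitals. The Mdm2 window is chr10:117710709-117711008, with the match 186 bases before the start, and the response elements known for Mdm2 lie downstream of it in the first intron. The Ccng1 window is chr11:40755237-40755536, with the match 185 bases before the start. The Gadd45a window is chr6:67037358-67037657, with the match 40 bases before the start.
Mdm2: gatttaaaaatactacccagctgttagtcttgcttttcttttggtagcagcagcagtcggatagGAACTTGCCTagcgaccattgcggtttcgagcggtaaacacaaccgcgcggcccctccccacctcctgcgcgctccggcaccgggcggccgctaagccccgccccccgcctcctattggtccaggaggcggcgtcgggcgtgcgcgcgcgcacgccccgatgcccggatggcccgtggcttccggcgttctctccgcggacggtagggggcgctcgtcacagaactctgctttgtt
Ccng1: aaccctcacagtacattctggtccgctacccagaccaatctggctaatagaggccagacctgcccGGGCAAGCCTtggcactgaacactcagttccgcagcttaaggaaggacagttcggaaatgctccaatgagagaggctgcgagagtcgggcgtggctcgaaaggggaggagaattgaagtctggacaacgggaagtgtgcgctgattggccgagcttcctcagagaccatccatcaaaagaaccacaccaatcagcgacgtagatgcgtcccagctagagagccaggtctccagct
Gadd45a: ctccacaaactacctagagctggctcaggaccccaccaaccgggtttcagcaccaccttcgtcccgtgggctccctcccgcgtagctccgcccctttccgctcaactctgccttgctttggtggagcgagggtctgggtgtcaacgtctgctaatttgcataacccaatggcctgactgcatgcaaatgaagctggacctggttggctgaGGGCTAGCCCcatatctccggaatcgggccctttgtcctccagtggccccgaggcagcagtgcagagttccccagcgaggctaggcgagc

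The comparison of hPARG cells with control asks which genes respond when hPARG is induced. None of the 31 tested p53 pathway genes was called at an FDR under 0.05 with a difference of more than 2-fold by edgeR, where 10 of all 11509 genes (0.0869%) were, and none passed the FDR at any fold. The lowest FDR was 0.419, for Bbc3. At an unadjusted p under 0.05 there were 3, Bbc3, Gadd45a and Gadd45b, all lower in hPARG cells (2.54% of all tested genes were lower by that measure), and 0 were higher (1.42% of all). DESeq2 gave 4 of the 31 an unadjusted p under 0.05, as it did 466 of all 11509 genes, and 1, Bbc3, an FDR under 0.05 (0.0187), as it did 52 of all (0.452%). With limma on RPKM the numbers were 3 of the 31 beside 489 of all genes, and 0 beside 15. In CPM, the 3 hPARG dishes lay entirely below the 3 control dishes for 8 of the 31 genes (25.8%, against 6.00% of all tested genes). The hPARG dishes lay entirely above the control dishes for 0 (3.61% of all). Those 8 are Trp53, Ppm1d, Gadd45a, Gadd45b, Plk2, Bbc3, Aen and Pidd1. The fitted difference was below 0 for 22 genes and above 0 for 9, so that 71.0% were fitted lower, against 49.1% of all tested genes. Their median log2 fold change was -0.07, beside 0.00 over all tested genes, and the range was -0.62 to 0.17. These counts describe genes measured in the same 6 dishes and are not a test of the list.

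The precision of the comparison is given by the 95% intervals. For 30 of the 31 genes (96.8%, against 90.8% of all tested genes) the interval lay within 2-fold in either direction, the exception being Gadd45a. For 24 it lay within 1.5-fold. The median reach of the interval to either side of the log2 fold change was 0.25, beside 0.34 over all tested genes, and Zmat3 had the widest at 0.61.

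**Figure D3:**
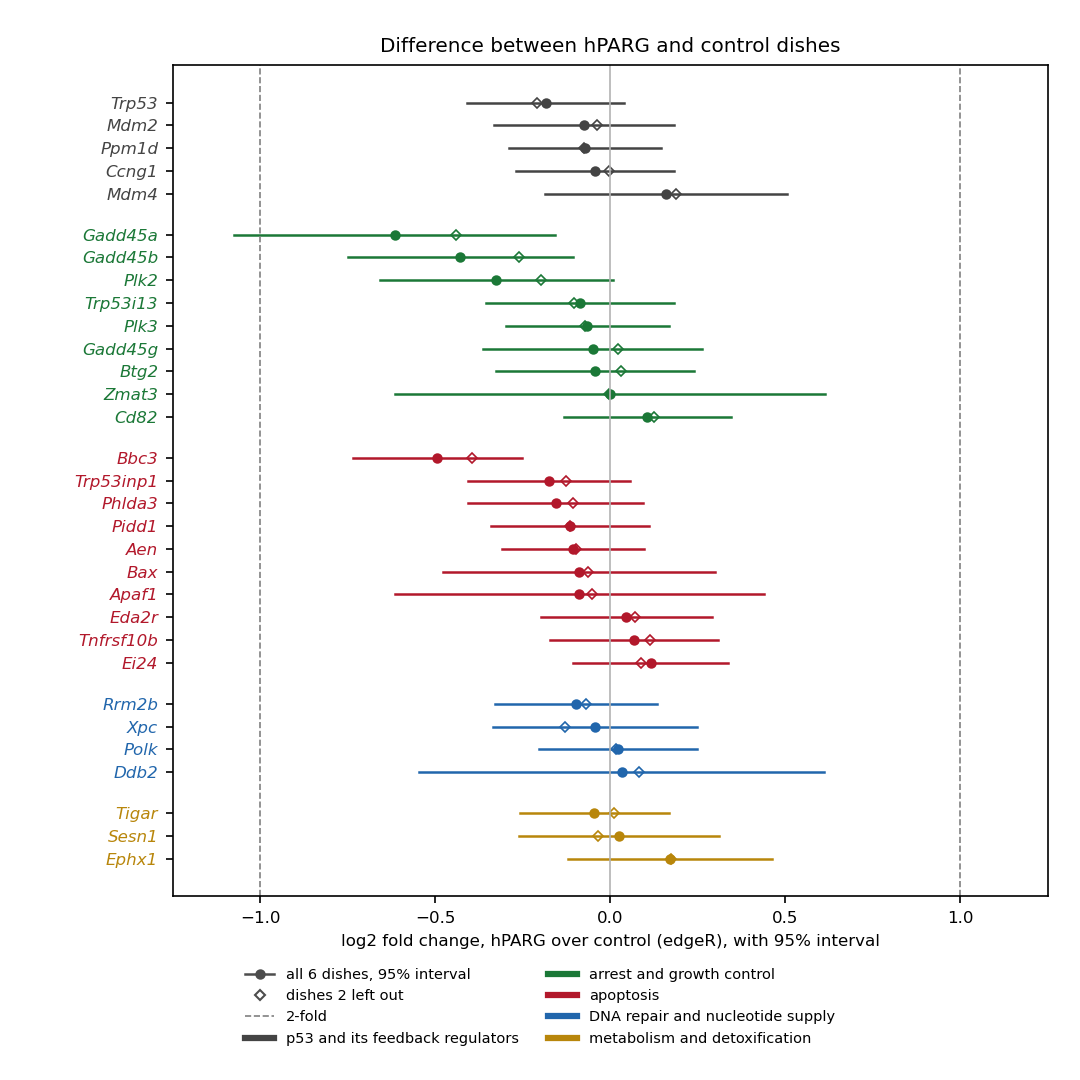
Log2 fold change of hPARG over control (points) with 95% intervals (bars) from edgeR for the 31 tested p53 pathway genes by role, and the value without both dishes 2 (open diamonds); dashed lines mark 2-fold. Bbc3, Gadd45a and Gadd45b have intervals entirely below 0, and the interval of Gadd45a reaches -1.07.

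Among the regulators, Trp53 and Ppm1d had a lower CPM in every hPARG dish than in any control dish. Mdm2, Ccng1 and Mdm4 overlapped between the groups in CPM. Trp53 (ENSMUSG00000059552, chromosome 11, 69580359 to 69591873, plus strand) stood at 267, 272 and 250.2 CPM in the control dishes and at 224, 248 and 222 CPM in the hPARG dishes. The gap between the groups, from 248 to 250.2 CPM, was small beside the spread within them. The log2 fold change was -0.18 (standard error 0.097, 95% interval -0.41 to 0.04, FDR = 0.999), and -0.21 without dishes 2. Ppm1d, the phosphatase Wip1 that switches off p53 signalling after damage, held 21.4 ± 0.41 CPM in control cells against 20.4 ± 0.59 CPM in hPARG cells, which is -0.07 on the log2 scale. Its groups were separated by a narrow margin, from 20.81 to 20.97 CPM.

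Mdm2 showed no separation on the CPM scale. Its CPM was 1519, 1569.7 and 1719.8 in control and 1553, 1422 and 1590.2 in hPARG dishes, with a log2 fold change of -0.07 (95% interval -0.33 to 0.18, FDR = 0.999) and of -0.04 without dishes 2. In the deposited RPKM, which carry no TMM scaling, the hPARG dishes (421 to 449) lay just under the control dishes (451 to 489), so the separation of Mdm2 depends on the scale. Trp53inp1, Phlda3 and Rrm2b likewise overlapped in CPM and were separated downwards in RPKM. Trp53 and Ppm1d, separated in CPM, overlapped in RPKM, where Trp53 was at 123.5 in hPARG dish 2 and at 119.7 in control dish 3. Ccng1, a cyclin that recruits a phosphatase to Mdm2, was at 539.8 ± 10.6 CPM in control cells against 524 ± 30.3 CPM in hPARG cells (log2 fold change -0.04). Mdm4, the Mdm2 relative that blocks the activation domain of p53, was the one regulator fitted higher, at 36.5, 46.7 and 39.1 CPM against 37.5, 50.7 and 48.3 CPM (log2 fold change 0.16, 95% interval -0.19 to 0.51, and 0.19 without dishes 2).

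Gadd45a, of the Gadd45 family of small stress sensors that bind cell cycle and stress kinases, had the largest fitted difference of the 31 genes. Gadd45a (ENSMUSG00000036390, chromosome 6, 67035096 to 67037457, minus strand) had 32.2, 56.0 and 52.8 CPM in control cells against 30.8, 29.8 and 31.4 CPM in the hPARG dishes. The hPARG dishes were close together, while control dish 1 lay next to them and far from the other control dishes. By edgeR the log2 fold change was -0.62 (standard error 0.198, 95% interval -1.07 to -0.16, FDR = 0.965). Without control dish 1 it was -0.82, without control dish 2 it was -0.47, and without both dishes 2 it was -0.44, so its size rests on which control dishes are used. The exons of Gadd45a share 19.1% of their bases with the antisense gene E230016M11Rik, which had no counts in any dish.

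Gadd45b (ENSMUSG00000015312, chromosome 10, 80930073 to 80932204, plus strand) had 70.5, 88.3 and 85.9 CPM in control cells against 68.2, 51.9 and 61.7 CPM in hPARG dishes. Again control dish 1 was the lowest control, and it lay just above hPARG dish 1. The log2 fold change by edgeR was -0.43 (standard error 0.139, FDR = 0.969), and without dishes 2 it was -0.26. Gadd45g, the third member, overlapped between the groups, at 34.8, 35.1 and 36.2 CPM in control cells against 41.1, 30.7 and 30.7 CPM in hPARG dishes (log2 fold change -0.05, and 0.02 without dishes 2). Whether the family members differ from each other in response was not tested.

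Plk2, a polo-like kinase that p53 induces, was at 351, 504 and 402 CPM in control cells against 314, 349 and 341 CPM in hPARG dishes. All hPARG dishes were lower, but control dish 1 lay next to the highest of them, and control dish 2 lay far above the rest. The log2 fold change was -0.33 (95% interval -0.66 to 0.01, FDR = 0.999), and -0.20 without dishes 2. Its relative Plk3 overlapped between the groups, with 18.1 ± 0.62 CPM in control cells against 17.2 ± 0.93 CPM in hPARG cells. Of the 11 arrest genes 9 were tested, and the median log2 fold change was -0.07. The groups were separated downwards for 3 of the 9 (33.3%, against 6.00% of all tested genes) and upwards for 0 (3.61% of all). Those separated, Gadd45a, Gadd45b and Plk2, are among the 8 named above.

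The remaining arrest genes had fitted log2 fold changes between -0.09 and 0.11. Btg2, an antiproliferative cofactor, was at 22.0 ± 1.75 CPM in control cells against 21.3 ± 2.39 CPM in hPARG cells. Trp53i13, a p53-inducible gene whose exons share 15.2% of their bases with Abhd15 on the other strand, was at 19.2 ± 0.21 and 18.0 ± 2.08 CPM. Cd82, a tetraspanin known as a metastasis suppressor, was the one arrest gene fitted higher, at 42.1 ± 2.31 and 45.3 ± 3.35 CPM (log2 fold change 0.11, FDR = 0.999). Zmat3 was fitted at 0.00, but its 95% interval of -0.62 to 0.61 was the widest of the list. Without both dishes 2 its log2 fold change was also 0.00, with a standard error of 0.091 in place of 0.265.

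**Figure D4:**
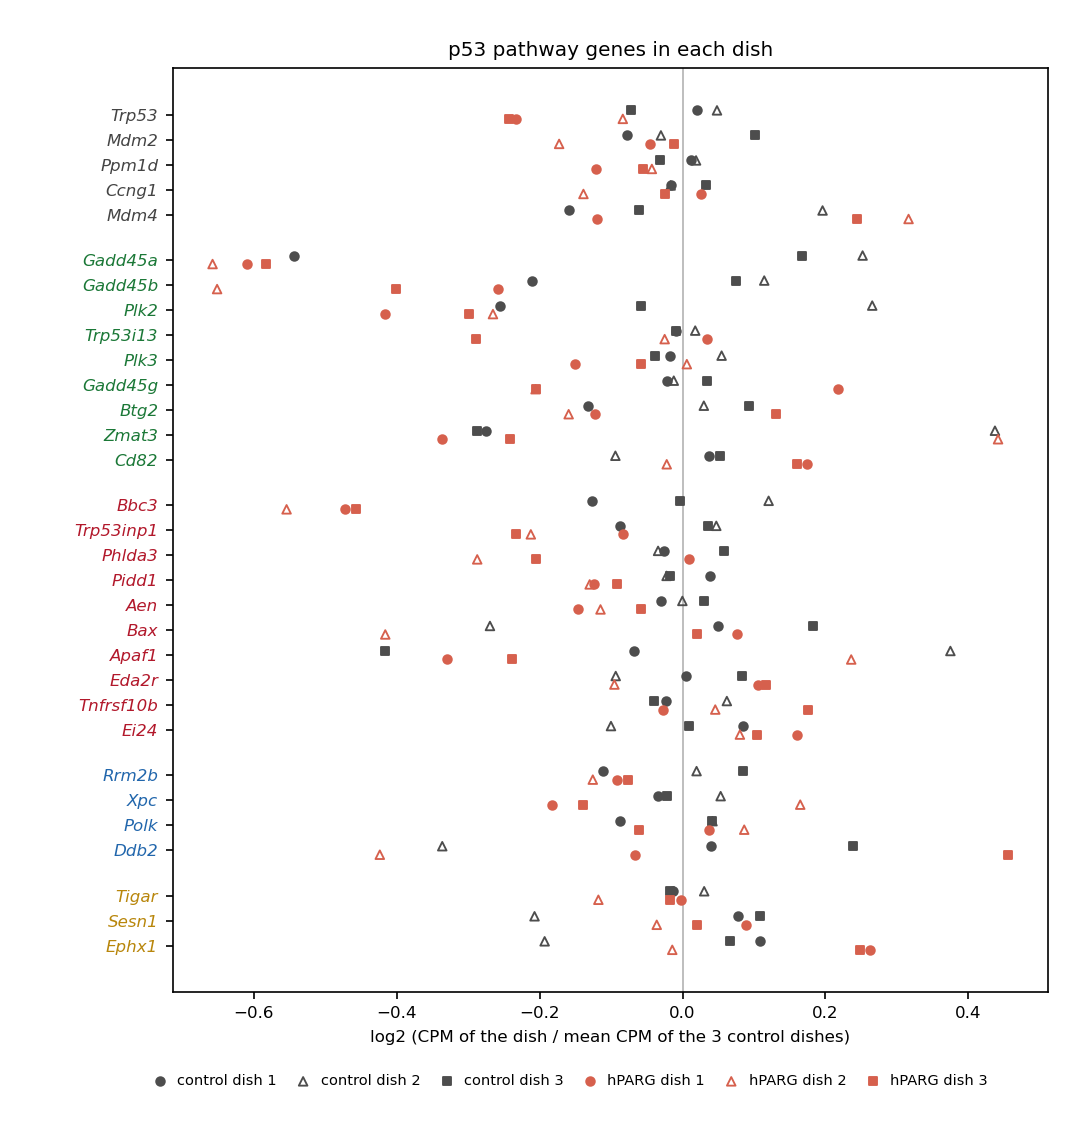
CPM of each dish relative to the mean of the 3 control dishes (log2 scale) for the 31 tested p53 pathway genes, grouped by role, with control dishes in grey, hPARG dishes in red and the dishes numbered 2 as open triangles. In Bbc3 the 3 hPARG dishes lie together at the left of all control dishes, in Gadd45a control dish 1 lies beside the hPARG dishes, and in Zmat3 both dishes 2 lie at the right.

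Of the 12 apoptosis genes 10 were tested, and Bbc3 had the smallest p. Bbc3 (ENSMUSG00000002083, chromosome 7, 16308393 to 16318205, plus strand) encodes Puma, a BH3-only protein that frees Bax and Bak to permeabilize mitochondria. Its CPM was 35.4, 42.0 and 38.6 in the control dishes and 27.9, 26.3 and 28.2 in the hPARG dishes. All hPARG dishes were well below all control dishes, and the gap, from 28.2 to 35.4 CPM, was wider than the range within either group. By edgeR its level in hPARG cells was 71.0% of control, a log2 fold change of -0.49 (standard error 0.104, 95% interval -0.74 to -0.25, FDR = 0.419). Without dishes 2 it was -0.39 (FDR = 0.216), and when any single dish was dropped it lay between -0.55 and -0.43. The difference did not pass the FDR threshold in the quasi-likelihood test, and it did with DESeq2 (0.0187) and with edgeR's likelihood ratio test (0.0370), so the call depends on the test used.

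Bax, the pore-forming effector of the mitochondrial route, overlapped between the groups. It was at 175, 140.4 and 192 CPM in control cells against 178, 127 and 172 CPM in hPARG dishes, with dish 2 the lowest in both groups. The log2 fold change was -0.09 (95% interval -0.48 to 0.30) and -0.06 without dishes 2, and 12.2% of its exon bases are shared with Gm45808 on the same strand. Apaf1, the scaffold of the apoptosome, stood at 18.9, 25.7 and 14.8 CPM in control cells against 15.8, 23.3 and 16.8 CPM in hPARG dishes. There too the groups overlapped and dish 2 was the extreme dish, here the highest (log2 fold change -0.09, and -0.05 without dishes 2).

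Aen, a nuclease of apoptotic cells, and Pidd1, a death-domain scaffold that activates caspases, were separated downwards by small amounts. Aen held 108, 110.3 and 113 CPM in control cells against 99.7, 102 and 106 CPM in hPARG dishes (log2 fold change -0.11, FDR = 0.999, and -0.10 without dishes 2). Pidd1 held 14.0 ± 0.33 CPM in control cells against 12.9 ± 0.18 CPM in hPARG cells (log2 fold change -0.12, 95% interval -0.34 to 0.11). In Aen the gap between the groups, from 106 to 108 CPM, was narrower than the range within either group. In Pidd1 the gap, from 13.1 to 13.8 CPM, was wider than either range. Neither gene passed the FDR threshold.

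Trp53inp1, a stress protein that promotes p53 phosphorylation and autophagy, was at 30.9 ± 1.57 CPM in control cells against 27.4 ± 1.56 CPM in hPARG cells, with overlapping groups (log2 fold change -0.17). Phlda3, which competes with Akt for membrane lipids, was at 159 ± 5.71 and 143 ± 15.4 CPM (-0.16). The log2 fold change was 0.07 for Tnfrsf10b, a receptor of the ligand TRAIL, and 0.05 for Eda2r, a receptor of ectodysplasin. Ei24, an endoplasmic reticulum protein of autophagy with 6.66% of its exon bases shared with the antisense gene Gm26787, was at 61.6 ± 3.95 and 66.7 ± 1.92 CPM (log2 fold change 0.12). None of these 5 genes was separated between the groups in CPM, though Trp53inp1 and Phlda3 were separated downwards in RPKM. The median log2 fold change of the 10 apoptosis genes was -0.10.

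None of the 4 repair genes was separated in CPM, though Rrm2b was separated downwards in RPKM. Ddb2 and Xpc encode the proteins that recognise ultraviolet damage for nucleotide excision repair, Rrm2b a ribonucleotide reductase subunit that supplies nucleotides, and Polk a polymerase that copies past lesions. Ddb2 had few counts, at 6.36, 4.90 and 7.31 CPM in control cells against 5.91, 4.62 and 8.49 CPM in hPARG dishes, and 23.8% of its exon bases are shared with Acp2 on the other strand. Its dishes within a group differed by more than the groups did (log2 fold change 0.03, 95% interval -0.55 to 0.61, and 0.08 without dishes 2). Xpc was at 14.3 ± 0.47 CPM in control cells against 13.9 ± 1.88 CPM in hPARG cells. Rrm2b was at 24.2 ± 1.64 and 22.6 ± 0.39 CPM, and Polk at 36.6 ± 1.86 and 37.2 ± 1.91 CPM. All 4 log2 fold changes lay between -0.10 and 0.03.

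The 3 metabolic genes overlapped between the groups as well. Tigar, a phosphatase that lowers glycolytic flux, was at 32.4, 33.4 and 32.3 CPM in control cells against 32.6, 30.1 and 32.3 CPM in hPARG dishes (log2 fold change -0.05, 95% interval -0.26 to 0.17, and 0.01 without dishes 2). Sesn1, a sestrin that restrains mTOR signalling, was at 12.8 ± 1.48 and 13.0 ± 0.56 CPM (log2 fold change 0.02, 95% interval -0.26 to 0.31). Ephx1, the microsomal epoxide hydrolase that detoxifies reactive epoxides, was at 83.3, 67.6 and 81.0 CPM in control cells against 92.7, 76.5 and 91.8 CPM in hPARG dishes. In Ephx1 dish 2 was the lowest of each group, and its log2 fold change was the highest of the 31 genes at 0.17 (standard error 0.126, FDR = 0.999), the same as without dishes 2.

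Further genes of the pathway were read from 2 lists written with earlier results of these data known. Of 45 other p53 targets 41 were tested and 0 were called by edgeR or by DESeq2, while 5 had an unadjusted p under 0.05 and were lower and 1 was higher. Over all tested genes 2.54% were lower and 1.42% higher by that measure. The groups were separated downwards for 7 of the 41 and upwards for 2 (6.00% and 3.61% of all tested genes), 73.2% were fitted lower (49.1% of all), and the median log2 fold change was -0.06. Of 30 genes that act upstream of p53 27 were tested, 0 were called and 0 had an unadjusted p under 0.05 by edgeR. The groups were separated downwards for 2 of the 27 (7.41%, near the 6.00% of all tested genes) and upwards for 0 (3.61% of all). Of these genes 37.0% were fitted lower, and the median was 0.02. Cdkn1a, the cyclin-dependent kinase inhibitor p21 and the best known arrest target of p53, was at 284, 286 and 273 CPM in control cells against 287, 270.2 and 260.3 CPM in hPARG dishes. These overlapped, its log2 fold change was -0.04 (95% interval -0.26 to 0.17, FDR = 0.999) and -0.02 without dishes 2, and its mean level was 93.6 RPKM. Cdkn2a, which encodes Arf and the kinase inhibitor p16, had no counts in any of the 6 dishes, which allows up to 3 counts per dish.

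Among the listed genes with the smallest p, 4 from the list of other targets are described. Fas, the death receptor of the Fas ligand, was at 12.8, 11.8 and 18.0 CPM in control cells against 8.66, 5.81 and 8.39 CPM in hPARG dishes. All hPARG dishes lay below all control dishes, and by edgeR the log2 fold change was -0.89 (standard error 0.214, FDR = 0.578) and -0.84 without dishes 2 (FDR = 0.0569). Lif, a cytokine of the interleukin 6 family, was at 43.6, 61.1 and 46.3 CPM in control cells against 28.9, 37.0 and 33.2 CPM in hPARG dishes (log2 fold change -0.61, FDR = 0.713, and -0.53 without dishes 2). Sco2, a copper chaperone for cytochrome oxidase, had a log2 fold change of -0.61 (FDR = 0.995), with the nearest dishes of the groups at 6.93 and 7.12 CPM, and Bid, a BH3-only protein that carries the death receptor signal to mitochondria, had one of -0.29 (FDR = 0.999). For all 4 the groups were separated downwards, as 6.00% of all tested genes were. Choice by the smallest p favours such genes, so this separation adds nothing to their p. None passed the FDR threshold.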

How the data were processed

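The authors mapped 150 bp paired-end reads of poly(A) libraries to GRCm38 with the Ensembl 96 annotation in CLC Genomics Workbench 12.0. The authors deposited counts per gene, whole numbers with no normalization, and RPKM, in which those counts are scaled to transcript length and to a library total the sources used here do not give. Whether strand was used in counting is not stated. TPM and CPM columns of the dishes (12 in all) and the authors' own comparison columns, which hold fold changes, p-values and group means, were not used.

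Genes were filtered with filterByExpr (minimum count 10), scaled by TMM and fitted in edgeR 4.0.16 under R 4.3.3 with its quasi-likelihood functions (glmQLFit, then glmQLFTest), without a block. Calls required a Benjamini-Hochberg FDR under 0.05 over all 11509 tested genes and more than 2-fold. Standard errors were taken as the size of the log2 fold change over the root of its F statistic. The fits were tested on simulated data. Exon lengths and overlaps come from GENCODE M21. Promoter windows come from RefSeq.

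The genes and gene lists were chosen with earlier results of these data known. Named genes are every p53 pathway gene with a row, Cdkn1a, Cdkn2a, any listed gene with an FDR under 0.05, and the 5 listed genes with the smallest p, of which 1 is not reported here. Any other gene was picked with its values in view, as the text says. Alternatives were DESeq2 1.42.0, RLE or library size scaling, other filters, the likelihood ratio test, a replicate block, leaving dishes out, and limma 3.58.1 on log2(RPKM + 0.1). Counts totalled 21619908 to 25263818 per dish. Tumors, qPCR and immunostaining were not analysed here.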

Additional observations from a re-analysis of the deposited data

How the results depend on the processing

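Between the settings, the count of all tested genes called was 10 in the reported fit, 22 with DESeq2, 16 with no filter, 30 with the likelihood ratio test, 19 with both dishes numbered 2 left out, 23 with the replicate block, and 3 to 13 when single dishes were dropped, where it was 3 without hPARG dish 1 and 5 without hPARG dish 3. None of the p53 pathway genes, and none of the 2 further lists, was called under any of the 14 alternatives run for these counts. The largest log2 fold change in size of the 31 genes under any setting was -0.82, for Gadd45a without control dish 1. None of the 31 therefore reached 2-fold, whatever its FDR. For the 2 further lists, genes with an FDR under 0.05 at any fold were not counted under the alternatives. The number of p53 pathway genes with an FDR under 0.05 at any fold was 0 in the reported fit and in each fit with 1 dish left out, 1 with DESeq2 (Bbc3, 0.0187), 1 with the likelihood ratio test (Bbc3, 0.0370) and 4 with the replicate block. In these fits 52 (0.452%), 65 (0.565%) and 330 (2.87%) of all tested genes passed the FDR. After the group means were subtracted, the correlation of same-numbered dishes was 0.0963, 0.61 and 0.168 for numbers 1 to 3. Only the dishes numbered 2 correlated best with their own number. With 3 dishes per group, subtracting the mean ties the deviations of the dishes to each other. These correlations therefore cannot decide whether the dishes numbered 1 and 3 are pairs. With the number as a block, the 4 genes were Bbc3 (FDR 0.00602), Gadd45a (0.0256), Gadd45b (0.0479) and Plk2 (0.0320), all lower.

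The sign of the log2 fold change turned for genes fitted near 0. Without both dishes 2, Sesn1 was at -0.034, Btg2 at 0.032, Gadd45g at 0.021 and Tigar at 0.010. With limma on RPKM, Sesn1 was at -0.0015, Ddb2 at -0.023 and Polk at -0.010, and with library size only, Sesn1 was at -0.0014 and Polk at -0.0041. Zmat3 was at 0.0026 with DESeq2 and at 0.0029 with RLE size factors. When single dishes were dropped, the log2 fold change ran from -0.081 to 0.00031 for Ccng1, -0.21 to 0.048 for Bax, -0.068 to 0.081 for Sesn1, -0.14 to 0.010 for Btg2, -0.21 to 0.022 for Gadd45g, -0.29 to 0.28 for Zmat3, -0.23 to 0.22 for Ddb2, -0.16 to 0.021 for Xpc, -0.014 to 0.062 for Polk, -0.28 to 0.14 for Apaf1 and -0.15 to 0.0050 for Trp53i13. The cause was not tested. The share of the 31 genes fitted lower lay between 61.3% and 80.6% over all settings, the latter with limma, where 58.0% of all genes were fitted lower. Precision is limited by 3 dishes per group of 1 clone.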

Other observations

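The genes named here were chosen after their values were seen. Mdm2 was not the only gene of its neighbourhood with a high level. On chromosome 10, 7 other protein-coding genes were tested whose lower coordinate lies within 500 kb of that of Mdm2, and 3 of them were at or above 100 RPKM, as were 613 of all 11509 tested genes (5.33%). These are Yeats4, a chromatin reader, at 244 RPKM, Nup107, a nuclear pore protein, at 169 RPKM, and Rap1b, a small GTPase, at 106 RPKM. Slc35e3 and Cpsf6 stood at 48.9 and 32.1 RPKM, and Lyz2 and Mdm1 at 4.40 and 4.71 RPKM. Cpm, the gene next to Mdm2, had 1 to 11 counts per dish. The median over the 7 neighbours, 48.9 RPKM, was the highest among the p53 pathway genes with tested neighbours, with Apaf1 next at 48.7 RPKM over 3 neighbours.

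Around Cdkn2a on chromosome 4, which had no counts in the 6 dishes, Cdkn2b, the gene of the kinase inhibitor p15, had 0 to 1 counts per dish and Dmrta1 had none. Mtap, a methionine salvage enzyme whose lower coordinate lies 137 kb from that of Cdkn2a, was at 150.02 RPKM and had a log2 fold change of -0.10 between the groups. Beyond Mtap, within 500 kb of Cdkn2a, the interferon genes Ifna1, Ifna4, Ifna5, Ifna6, Ifna7 and Ifna11 had no counts either. Gm13285, among them, was tested and was at 4.22 RPKM. Of the relatives of p53, Trp73 had no counts and Trp63 had 0 to 4 counts per dish.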
